A study of Mus musculus with 20 samples.

Results

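The 38 genes described here encode the degradative machinery of the lysosome and were given as a fixed list of names: 9 cathepsins, 6 glycosidases, 7 lipid hydrolases and other soluble lysosomal proteins, 5 membrane proteins, the transcription factor Tfeb, and 10 subunits of the vacuolar proton pump (V-ATPase), of which 4 belong to its membrane sector V0 and 6 to its cytosolic sector V1. All 38 were among the 33119 genes of the count table, and all 38 passed the filter on low counts, which kept 21724 genes. RNA sequencing was carried out on the hippocampus of 20 mice aged 16 months, with 4 groups of 5 formed by sex (male or female) and APOE genotype (hAPOE3 or hAPOE4). All mice were homozygous for a targeted replacement of mouse Apoe by a human APOE allele on a C57BL/6 background, so the control group carried human APOE3, and no mice with mouse Apoe were analysed here. Each library came from the tissue as a whole, and the total count per mouse ranged from 35778879 to 52520279, of which the 38 genes took 0.626% to 0.794%.

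Lysosomes are acidic organelles in which proteins, glycans and lipids taken up by endocytosis or delivered by autophagy are broken down. The V-ATPase uses ATP hydrolysis in its V1 sector to drive protons through its V0 sector into the lumen, and the acid pH activates cathepsins and glycosidases, most of which are made as inactive precursors. In the brain the V-ATPase also acidifies synaptic vesicles, so its transcripts in neurons serve more than the lysosome, whereas several cathepsins are most abundant in microglia. The transcription factor TFEB binds short palindromic elements around the sequence CACGTG, and many lysosomal genes hold such elements close to their start sites.

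The 250 bases upstream of the annotated start were read for 32 of the 38 genes (RefSeq, GRCm38.p6), and both strands were searched for CACGTG, which is its own reverse complement. The sequence occurred upstream of 12 of the 32 genes (Atp6v0b, Atp6v1a, Cln3, Ctsa, Ctsd, Ctsf, Ctsl, Gaa, Gla, Glb1, Lamp1 and Mcoln1), beside 6.86% of all 27025 genes with such a window. The longer form TCACGTG, or CACGTGA on the other strand, which contains the shorter form, was present upstream of 10 genes, beside 3.58% of all genes. A match is a description of the letters in this window and shows neither binding nor regulation. The windows of 4 genes to which the results return are given here, each written 5′ to 3′ along the strand of the gene and ending just before the start, with the matches in capitals: the glycosidase gene Gaa, the membrane protein gene Lamp1, the protease gene Ctsd and the proton pump gene Atp6v0b.
Gaa (chr11:119267713-119267962, plus strand): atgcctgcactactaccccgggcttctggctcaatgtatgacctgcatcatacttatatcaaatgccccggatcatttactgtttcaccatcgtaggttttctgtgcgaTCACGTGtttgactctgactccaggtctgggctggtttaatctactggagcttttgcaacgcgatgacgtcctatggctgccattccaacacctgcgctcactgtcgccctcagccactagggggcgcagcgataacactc
Lamp1 (chr8:13158911-13159160, plus strand): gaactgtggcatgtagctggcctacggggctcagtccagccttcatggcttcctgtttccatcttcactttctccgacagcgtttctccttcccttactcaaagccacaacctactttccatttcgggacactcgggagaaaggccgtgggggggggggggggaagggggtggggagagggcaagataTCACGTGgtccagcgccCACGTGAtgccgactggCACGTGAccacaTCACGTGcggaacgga
Ctsd (chr7:142387828-142388077, minus strand): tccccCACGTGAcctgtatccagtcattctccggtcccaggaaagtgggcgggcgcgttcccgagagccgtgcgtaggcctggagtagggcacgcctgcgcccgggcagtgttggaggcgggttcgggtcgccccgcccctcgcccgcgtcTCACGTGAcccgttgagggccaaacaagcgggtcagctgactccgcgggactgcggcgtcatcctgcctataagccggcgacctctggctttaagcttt
Atp6v0b (chr4:117887330-117887579, minus strand): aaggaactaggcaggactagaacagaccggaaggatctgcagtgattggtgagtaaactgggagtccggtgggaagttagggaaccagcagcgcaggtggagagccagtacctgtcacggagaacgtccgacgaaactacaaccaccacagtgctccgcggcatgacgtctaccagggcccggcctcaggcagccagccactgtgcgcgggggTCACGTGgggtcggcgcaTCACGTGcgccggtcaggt
Lamp1 held 4 copies of CACGTG between 61 and 15 bases before its start, Atp6v0b and Ctsd held 2 each, and Gaa held 1 that began 140 bases before its start.

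Levels were compared between genes only per length, as TPM computed here from the counts and the length of the annotated exons (each count divided by its length and scaled to 1 common total per mouse) and averaged over the 20 mice. Psap, which encodes the precursor of the saposins that help degrade sphingolipids, had the highest level of the 38 genes, at 1547 ± 204 (SD, n = 20 mice). The next was Atp6v0c, the proton-carrying ring subunit of V0, at 537 ± 82.3, followed by the aspartic protease gene Ctsd at 415 ± 96.0. The annotated exons of Atp6v0c join to 3384 bases against 1183 in its longest transcript, and those of Psap to 2744 against 2657. The distance between these 2 genes thus depends on the length used. Of the 10 listed proton pump subunits, 9 ranked among the first 15 genes, from Atp6v0c down to Atp6v1c1 at 130 ± 14.2. Atp6v1h, a regulatory subunit, was lower, at 47.6 ± 4.45. Its annotated exons join to 9746 bases against 2049 in its longest transcript, so its place depends on the length used. Pump subunits outside the list ran from Atp6v1g2 at 463 to Atp6v1e2 at 0.051. The cathepsins spanned a wider range than the 10 listed subunits. They ran from Ctsd through Ctsb at 247 ± 33 and Ctss, a protease of microglia, at 196 ± 18.4. At the bottom were Ctsh at 7.77 ± 1.71 and Ctsc at 7.68 ± 2.36, which differed by less than their spread. Among the glycosidases, Gaa, the acid alpha-glucosidase that degrades glycogen in the lysosome, was highest at 196 ± 41.1, whereas Gla and Gusb were lowest at 10.4 ± 1.19 and 10.4 ± 1.5. Of the membrane proteins, Lamp1, a heavily glycosylated protein of the lysosomal membrane, had 307 ± 47.3 and Cln3 8.14 ± 1.21. Tfeb had the lowest level of all on this scale, 4.39 ± 1.21. For Tfeb too the joined exons, 5669 bases, exceed the longest transcript, 2342 bases, so its rank also depends on the length used. The same limit applies to further genes, such as Ctsh (4499 and 1617 bases) and Atp6v0b (2051 and 1000 bases).

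**Figure D1:**
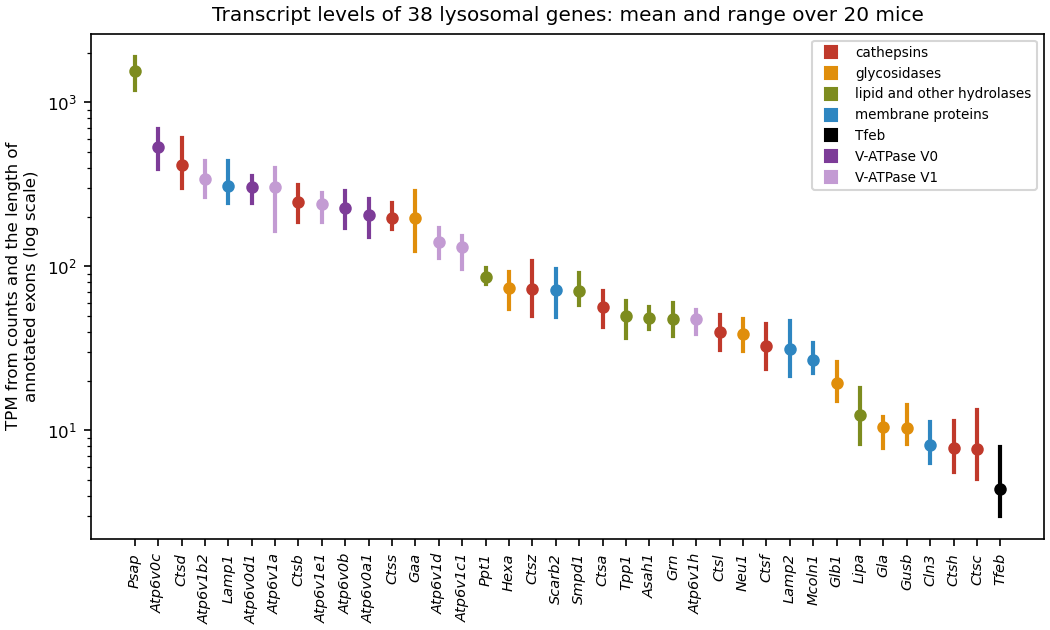
Level of each of the 38 genes on a log scale, in TPM computed from the counts and the length of annotated exons (vertical axis), with genes ordered along the horizontal axis. Points are means over the 20 mice and bars run from the lowest to the highest mouse. Psap at 1547 and Tfeb at 4.39 mark the ends of the order, and the V-ATPase subunits, except Atp6v1h, lie in its upper part.

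In 4 of the 5 hAPOE4 males (replicates 2 to 5) markers of oocytes, the female germ cells, were raised, with a score of 1.68 to 2.64 against -0.24 or less in the other 16 mice. In the same 4 males Xist, an RNA made from the inactive X chromosome of females, was at 19.3 to 28.4 CPM, against 3.95 to 7.5 CPM in the other 6 males and 654 to 988 CPM in females. The source of this RNA was not tested. Some results that rest on these 4 libraries are also given without them, which leaves a single hAPOE4 male that is assumed to vary like the other mice. These are the genotype differences of Gaa, Ctss and Ctsz, and the slopes on choroid plexus and oligodendrocyte scores. Class medians, sex differences of single genes and slopes on the oxidative phosphorylation score are not given without them. Values there can differ: without them Atp6v1a had a genotype log2 fold change of 0.51 in males.

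The first comparison asked whether the lysosomal genes differed between hAPOE4 and hAPOE3 mice. Across the mean of both sexes only Gaa passed the test, with a higher level in hAPOE4 mice (edgeR quasi-likelihood test, Benjamini-Hochberg adjusted over all 21724 genes, threshold 0.05), beside 0.704% of all genes tested that passed as higher and 2.45% that passed in either direction. No member passed in males alone, where 0.621% of all genes did, or in females alone, where 0.667% did. At an unadjusted p below 0.05, edgeR gave 5 members for the mean of both sexes, 2 in males and 4 in females, beside 17.9%, 9.06% and 10.1% of all genes. DESeq2 gave 2 members for the mean of both sexes, Gaa and Atp6v1b2, and 0 in each sex alone. The share of all genes that DESeq2 called is not given here, so these counts are not set against it. The median log2 fold change over the 38 genes was -0.05 in males, 0.06 in females and 0.02 for the mean, against 0.0017, 0.0013 and 0.0016 over all genes tested.

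In counts scaled to the TMM-adjusted library total (CPM), Gaa stood at 245, 308, 330, 206 and 273 in the 5 hAPOE3 males and at 335, 308, 398, 316 and 308 in the 5 hAPOE4 males. In females, Gaa was at 283, 252, 249, 251 and 209 CPM in the hAPOE3 mice and at 360, 310, 268, 304 and 343 CPM in the hAPOE4 mice. The genotypes overlapped in both sexes: 1 hAPOE3 male lay within the range of the hAPOE4 males, and 1 hAPOE3 female lay above the lowest hAPOE4 female. The group means were 272 ± 49.4 and 333 ± 37.7 CPM in males and 249 ± 26.4 and 317 ± 35.8 CPM in females (SD, n = 5). The log2 fold change for the mean of both sexes was 0.32 (SE 0.085, 95% interval 0.14 to 0.50), a 1.25-fold higher level, with an edgeR adjusted p of 0.0494. The effect was 0.29 (SE 0.12) in males and 0.35 (SE 0.12) in females, and the difference between these was 0.06 with a 95% interval from -0.30 to 0.41, so the sexes were not distinguished. The adjusted p sat at the threshold: Gaa passed without each of 5 mice in turn (hAPOE3 female 1, hAPOE3 males 2 and 3, hAPOE4 female 3 and hAPOE4 male 5) and did not pass without each of the other 15, where its adjusted p rose to at most 0.105, while its log2 fold change stayed between 0.27 and 0.36. Without the 4 hAPOE4 males with raised oocyte markers it was 0.33 for the mean of both sexes, with an edgeR adjusted p of 0.331, and 0.31 in males. Gaa lies on chromosome 11 and overlaps no other annotated gene. Within groups its level did not change detectably with a score of choroid plexus markers (slope -0.0087 ± 0.026 per unit of score, SE) or of oxidative phosphorylation genes (-0.25 ± 0.21). The slopes of Gaa on the other scores used below are not given, and the source of its genotype difference was not tested.

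The genes with the next smallest p for the mean of both sexes were Atp6v1b2 and Lipa, neither of which passed in edgeR. Atp6v1b2, a subunit of the catalytic V1 head, was at 507, 516, 537, 527 and 541 CPM in hAPOE3 females and at 578, 609, 699, 566 and 614 CPM in hAPOE4 females. These groups did not overlap, the single such case among the 38 genes in either sex, beside 3.27% of all genes in females and 1.44% in males. The gene Atp6v1b2 overlaps Slc18a1 on the other strand, as Ctsb does Fdft1, Ctsz Nelfcd and Lamp1 Grtp1, and where exons of such genes overlap, reads cannot be assigned to either strand here, since the strand setting was not given. The log2 fold change of Atp6v1b2 was 0.22 (SE 0.082) in females, 0.14 (SE 0.082) in males and 0.18 (SE 0.058) for the mean, where the edgeR adjusted p was 0.104. Lipa, the lysosomal acid lipase that frees cholesterol and fatty acids, had 25.4 ± 2.86 CPM in hAPOE3 females and 31.1 ± 4.95 CPM in hAPOE4 females (SD, n = 5). Its log2 fold change for the mean of both sexes was 0.25 (SE 0.081, edgeR adjusted p 0.111). Within groups Lipa rose with a score of choroid plexus markers, which was highest in 3 hAPOE4 females, and with that score in the model its log2 fold change was 0.22, with an edgeR adjusted p of 0.0455.

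In males the smallest p values belonged to Ctss, Gaa and Ctsz. Ctss was at 89.2, 79.8, 117, 83.2 and 100 CPM in hAPOE3 males and at 80.7, 84.9, 76.7, 84.2 and 70.6 CPM in hAPOE4 males. The groups overlapped, and the 2 highest hAPOE3 males were replicates 3 and 5, which also had the highest microglia scores of the 20 mice. The next highest microglia score, 0.13, was that of hAPOE4 male 5, which had the lowest Ctss of all mice, 70.6 CPM. The log2 fold change of Ctss was -0.24 (SE 0.094, edgeR adjusted p 0.434), and -0.15 without hAPOE3 male 3. Ctsz, a carboxypeptidase, ranged from 24.4 to 52.3 CPM in hAPOE3 males and from 23.7 to 36.6 CPM in hAPOE4 males, with a log2 fold change of -0.39 whose 95% interval ran from -0.79 to 0.00. None of these values passed the adjusted threshold. Without the 4 hAPOE4 males with raised oocyte markers the differences were -0.21 for Ctss and -0.65 for Ctsz.

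**Figure D2:**
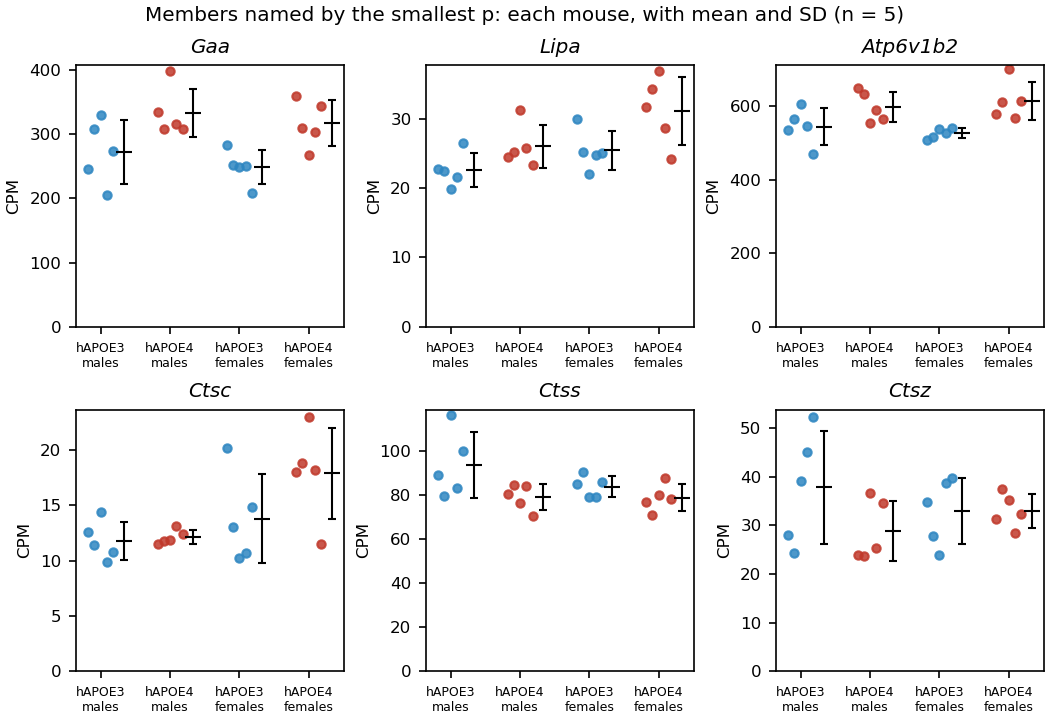
Level of 6 genes in CPM (vertical axis, from 0) in each of the 20 mice, by group along the horizontal axis. Blue points are hAPOE3 and red points hAPOE4 mice, and the bar beside each group gives the mean and SD (n = 5). Gaa is higher in hAPOE4 mice of both sexes with overlapping groups, Atp6v1b2 does not overlap between the female groups, and Ctsc is spread over 11.5 to 23.0 CPM in hAPOE4 females.

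Described by class, the genotype differences were small in every group of genes. Of the 9 cathepsins, 8 were lower in hAPOE4 males (median log2 fold change -0.08) and 7 were higher in hAPOE4 females (median 0.15), and 0 passed the test in either sex. The 6 glycosidases were all higher in hAPOE4 females, with a median of 0.07. The lipid hydrolases and other soluble proteins had medians of 0.0046 in males and 0.06 in females, and the membrane proteins -0.04 and 0.02. The subunits of V0 had medians of -0.13 and -0.03 and those of V1 -0.0014 and 0.09, again in males and females in that order. Tfeb differed by -0.04 (SE 0.15, 95% interval -0.35 to 0.26) for the mean of both sexes.

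How large a change these data leave room for can be read from the 95% intervals of the fold changes. For the mean of both sexes, all 38 intervals lay within a 1.5-fold change in either direction, as did those of 14882 of the 21724 genes tested. In males 37 of the 38 intervals lay within that range, the exception being Ctsz, and in females 36, the exceptions being Ctsc and Gaa. Of all genes tested, 54.4% did so in males and 56.3% in females. Among those with a mean log2 CPM of 2 or more the shares were 81.5% and 85.4%. A 1.5-fold difference between genotypes was thus outside the interval of nearly every one of the 38 genes, whereas smaller differences were within it. Of 89 other lysosomal genes tested, 73 had intervals within that range in each sex. The spread between mice of 1 group had a median SD of 0.18 on the log2 scale for the 38 genes, from 0.084 for Ppt1 to 0.33 for Tfeb. It was 0.20 for the 12800 genes with a mean log2 CPM of 2 or more. That limit lies below the level of each of the 38 genes. The comparisons of intervals and SD with these 12800 genes are therefore not matched for level.

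**Figure D3:**
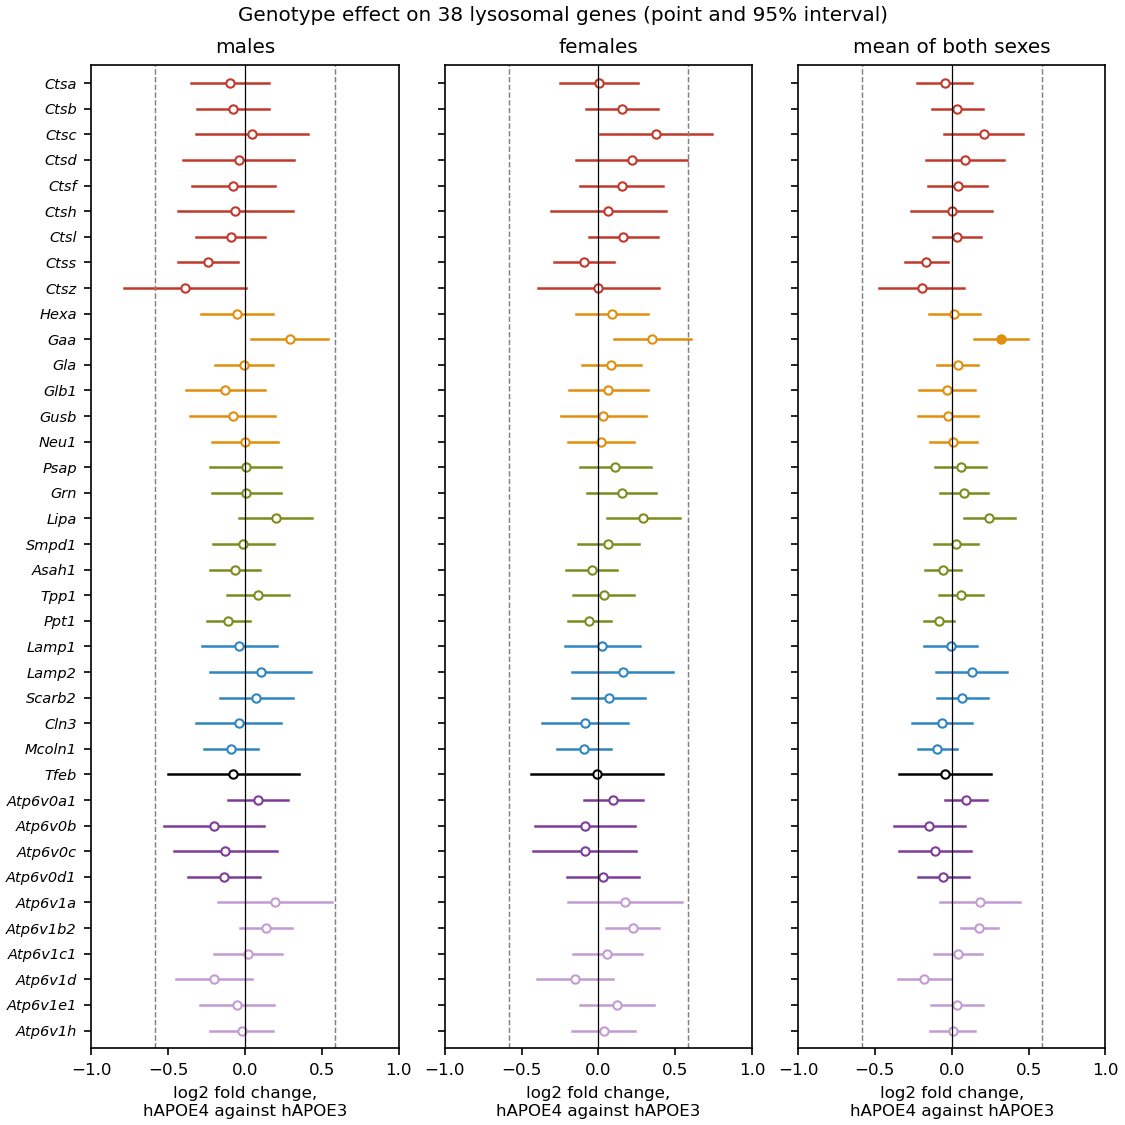
Log2 fold change of hAPOE4 against hAPOE3 (horizontal axis) for each of the 38 genes in males, in females and for the mean of both sexes. Points are edgeR estimates, filled where the adjusted p was below 0.05, lines are 95% intervals, and dashed lines mark a 1.5-fold change. Gaa for the mean of both sexes is the one filled point, and in that panel every interval stays within the dashed lines.

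Differences between the sexes were examined in the same way. In edgeR 0 of the 38 genes passed among hAPOE3 mice, among hAPOE4 mice or for the mean of both genotypes, beside 0.0414%, 0.437% and 0.129% of all genes, and DESeq2 also gave 0 in each. At an unadjusted p below 0.05 edgeR gave 1, 2 and 4 members, beside 5.22%, 5.80% and 10.0% of all genes. Among hAPOE4 mice, the cathepsin C gene Ctsc, whose product activates serine proteases of immune cells, was at 11.5, 11.8, 11.9, 13.1 and 12.5 CPM in males and at 18, 18.8, 23.0, 18.2 and 11.5 CPM in females. The first 4 of these females lay above every male, and the fifth lay level with the lowest male, just below it. The log2 fold change was 0.56 (SE 0.17, 95% interval 0.20 to 0.92, edgeR adjusted p 0.380). The fifth female was also the one hAPOE4 female with a choroid plexus score below -1.5, and when only the 8 mice below that score were used, with 1 hAPOE4 female and 3 hAPOE4 males, the difference was -0.07.

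Lipa and Lamp2, the other members with the smallest p among hAPOE4 mice, had log2 fold changes of 0.26 (SE 0.11) and 0.30 (SE 0.16) in females against males. Among the mice with a low choroid plexus score these were -0.05 and -0.26, with 1 hAPOE4 female. That female had the lowest Lipa and Lamp2 of its group (24.1 and 72.7 CPM), so the comparison cannot separate this mouse from the score. The part of choroid plexus RNA in these differences was not tested beyond these values. Among hAPOE3 mice, the smallest p values belonged to Ctsf (-0.33, SE 0.13), Ctss (-0.16, SE 0.094) and Tfeb (-0.32, SE 0.21), all lower in females, and the adjusted p was 0.805 for each. For Tfeb the 5 hAPOE3 males had 8.41, 6.43, 8.12, 8.24 and 13 CPM and the 5 hAPOE3 females 7.37, 6.79, 5.74, 9.26 and 6.15 CPM, so the groups overlapped and 1 male stood well above the rest. Without that male the difference was -0.14. For the mean of both genotypes Ctsc (0.39), Lipa (0.21) and Lamp2 (0.27) had the smallest p, with edgeR adjusted p values of 0.287, 0.370 and 0.409.

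Whether the genotype effect differed between the sexes was tested as an interaction. In edgeR 0 of the 38 genes passed, with 0 at an unadjusted p below 0.05 and 0 in DESeq2, beside 0.184% of all genes at the adjusted threshold and 2.54% at the unadjusted one. The estimate, the genotype effect in females minus that in males, was above 0 for 33 of the 38 genes, with a median of 0.09. It was above 0 for 66 of the 89 other lysosomal genes tested and for 10809 of all 21724 genes tested. All 9 cathepsins were above 0 (median 0.23), led by Ctsz at 0.39 (SE 0.27), Ctsl at 0.25 (SE 0.15) and Ctsb at 0.23 (SE 0.16). The 38 estimates come from the same 20 mice and are not independent of each other. Among the mice, hAPOE3 males 3, 4 and 5 had the highest scores for 46 genes of oxidative phosphorylation (0.33 to 0.39). Their mean cathepsin levels were 0.09 to 0.31 above the mean of all mice on the log2 scale. In hAPOE4 females 2 and 3 cathepsin means were 0.18 and 0.22, at scores of -0.12 and 0.02. In hAPOE3 females 4 and 5 they were -0.0005 and 0.08, at scores of 0.24 and 0.32. With the oxidative phosphorylation score in the model the median interaction was 0.05. The source of the interaction estimates was not tested.

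Another 95 lysosomal genes that are not members, chosen as further proteases and inhibitors, hydrolases, membrane and sorting proteins, pump subunits and regulators, were examined beside them, and 89 of them were tested. None of the 89 passed in edgeR in any of the 7 comparisons. For hAPOE4 against hAPOE3, their median log2 fold change was -0.03 in males, 0.05 in females and 0.01 for the mean of both sexes, and at an unadjusted p below 0.05 there were 4, 3 and 9 of them.

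Mice of the same group differed in their lysosomal genes. The 38 genes ranged over 0.39 (Asah1) to 1.22 (Ctsc) on the log2 scale across the 20 mice, group differences included. The largest log2 fold change between 2 groups was 0.56 (Ctsc), but a range over single mice always exceeds a difference of their group means. Within groups, the SD between mice ran from 0.084 (Ppt1) to 0.33 (Tfeb) on the log2 scale. To describe what these differences went with, the level of each gene was regressed, within groups, on scores of 4 other gene lists, each score being the mean log2 level of the list in a mouse relative to its mean over all mice, and the slope of every tested gene was tested in edgeR. The lists were 12 markers of the choroid plexus, the secretory epithelium of the brain ventricles, 46 nuclear genes of oxidative phosphorylation, 8 markers of oligodendrocytes and 12 markers of microglia, none of them members. These slopes were examined after the data had been seen. In bulk tissue, a larger share of a cell type and more RNA per cell of that type cannot be told apart.

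The choroid plexus score ran from -2.29 to 2.79, and the summed CPM of its 12 markers from 266 to 9444, with no marker at 0 in any mouse. The scores fell into separate ranges, with 8 mice from -2.29 to -1.75 and 12 mice from -0.31 to 2.79, and both ranges held mice of every group. The 8 hippocampal markers were present in all 20 libraries, with summed CPM from 550 to 1104.

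With the choroid plexus score, 11 of the 38 genes rose and 0 fell, beside 5.34% of all genes that rose and 2.53% that fell (7.87% together). They were 6 cathepsin genes (Ctsa, Ctsb, Ctsd, Ctsh, Ctsl and Ctsz), the glycosidases Glb1, which removes galactose from gangliosides, and Gusb, the acid lipase Lipa, the protease Tpp1, and Lamp1. No subunit of the proton pump was among them, and all 6 V1 subunits had slopes below 0, from -0.09 to -0.0048 per unit of score, none of which passed. Ctsd had a slope of 0.13 ± 0.024 (SE, log2 change per unit of score, edgeR adjusted p 0.0019). Its level was 235, 235, 237 and 244 CPM in its 4 lowest mice (hAPOE4 male 4, hAPOE3 female 3 and hAPOE4 males 2 and 1), all in the low range of the score. It was 384, 405, 408 and 416 CPM in its 4 highest mice (hAPOE4 female 3, hAPOE3 male 5, hAPOE4 female 2 and hAPOE4 male 3), all in the higher range of the score. Ctsh and Ctsz had slopes of 0.13 ± 0.027 and 0.13 ± 0.029, and Glb1 0.09 ± 0.019.

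The calls depended on mice of both ranges. Within the 12 mice of the higher range all 11 slopes were still above 0, with a median of 0.10, but none passed, where 120 of 22970 genes did. Within the 8 mice of the low range 9 of the 11 were above 0 and 0 of all genes passed. With gene length offsets 6 of the 11 passed again (Ctsd, Ctsh, Ctsz, Glb1, Lipa and Lamp1), and the pump subunit Atp6v0a1 passed as lower, with a slope of -0.07. With all 4 scores in the model at once Ctsd, Ctsh, Glb1 and Lipa passed. Without hAPOE3 male 5, and likewise without hAPOE4 male 3, 7 members passed, and without hAPOE4 female 5 there were 19. Apart from the fits within the score ranges, the share of all genes called is not given for the fits of this paragraph. Without the 4 hAPOE4 males with raised oocyte markers, Ctsd, Ctsh and Lipa passed. Of the 89 other lysosomal genes 14 rose with this score and 0 fell, including Cd63 (0.18 ± 0.022), a membrane protein of late endosomes, the cholesterol carrier Npc2 (0.17 ± 0.026) and the glycoprotein hydrolase Aga (0.15 ± 0.025).

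Some members, among them subunits of the proton pump, were called with the oxidative phosphorylation score. With this score 9 of the 38 genes rose and 2 fell, which is 28.9%. This share is close to the 27.0% of all genes called (13.8% rose and 13.2% fell). Of the 89 other lysosomal genes 21 rose and 13 fell (38.2%), so calls with this score were not particular to the members. Of the 10 pump subunits 4 rose and 1 fell. Of the 4 V0 subunits 3 rose: Atp6v0c by 1.10 ± 0.16, Atp6v0b by 1.01 ± 0.18 and Atp6v0d1 by 0.72 ± 0.12 on the log2 scale per unit of score (SE, edgeR adjusted p 4.71e-05, 0.000299 and 0.000171). In V1, Atp6v1e1 of the peripheral stalk rose by 0.73 ± 0.12, whereas Atp6v1a, the catalytic subunit that splits ATP, had a slope of -0.82 ± 0.27 (adjusted p 0.0298). The other genes that rose were Ctsa, Ctsb, Ctsz, Hexa and Grn, and Scarb2, the receptor that carries glucocerebrosidase to lysosomes, fell (-0.66 ± 0.14). With gene length offsets, 9 of these 11 genes passed again, and Ctsa and Ctsb did not, with slopes of 0.14 and 0.03. With all 4 scores in the model 7 passed again, and Atp6v1a (-0.49, edgeR adjusted p 0.0671), Ctsa, Grn and Hexa did not. For both of these fits the share of all genes called is not given.

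Among hAPOE3 mice, Atp6v1a was low where Atp6v0c was high. Atp6v0c was at 479, 511, 698, 675 and 722 CPM in the 5 hAPOE3 males and at 481, 474, 445, 773 and 703 CPM in the 5 hAPOE3 females. Atp6v1a in the same mice, in the same order, was at 629, 648, 494, 408 and 333 CPM in males and at 607, 659, 629, 437 and 514 CPM in females. The last 3 males and the last 2 females, the 5 mice with the highest oxidative phosphorylation scores (0.24 to 0.39), were those with the highest Atp6v0c and the lowest Atp6v1a within their groups. Among hAPOE4 males, in the same order of replicates, Atp6v0c was at 574, 531, 511, 501 and 705 CPM and Atp6v1a at 714, 653, 445, 646 and 413 CPM. The fifth of these was highest in Atp6v0c and lowest in Atp6v1a, but the third was low in both and the first high in both, so the opposite course did not hold throughout this group. Among the 20 mice Atp6v1a ranged over 1.12 and Atp6v0c over 0.80 on the log2 scale.

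Transcript length went with these slopes. Over the 10 pump subunits the rank correlation of the slope on the oxidative phosphorylation score with transcript length was -0.92, over the 38 genes -0.48, and over the 12598 genes with a mean log2 CPM of at least 2 and a known length -0.73. These are correlations across genes measured in the same 20 libraries, and genes are not independent replicates. The part of RNA integrity or library preparation in these relations was not tested.

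**Figure D4:**
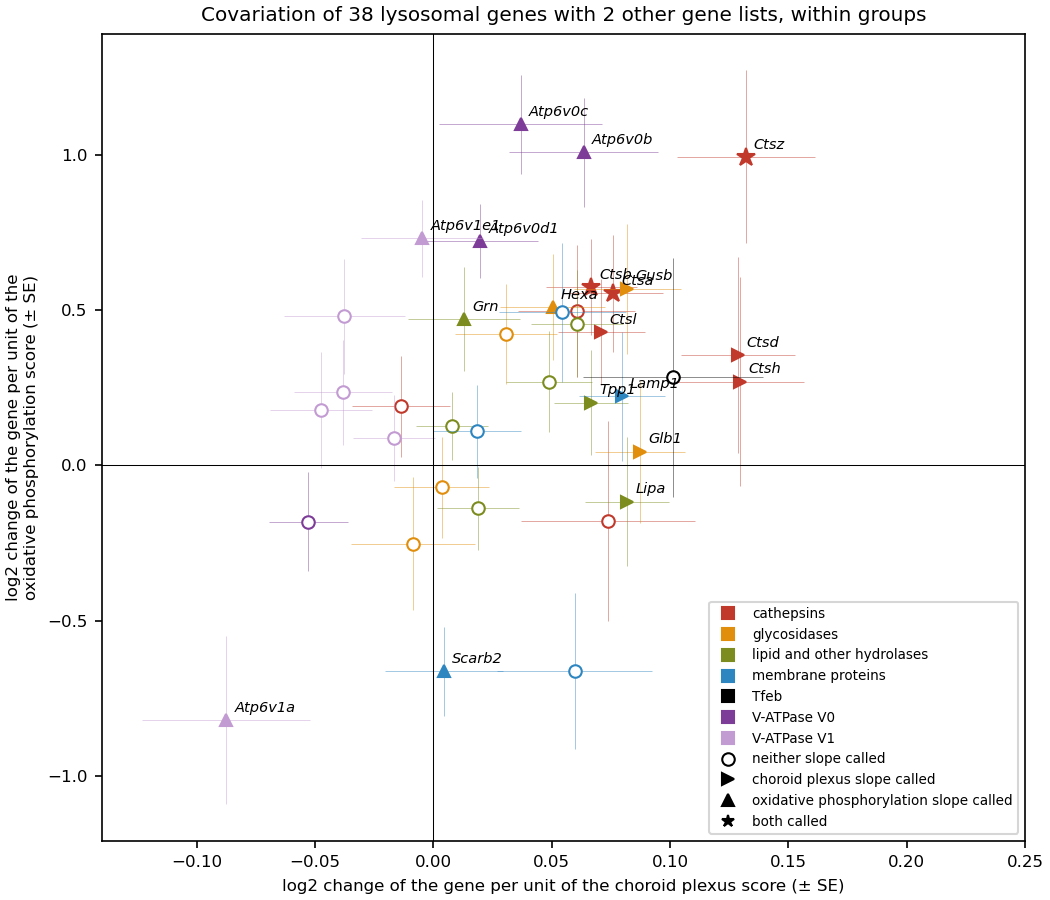
Slope of each of the 38 genes on the choroid plexus score (horizontal axis) and on the oxidative phosphorylation score (vertical axis), both as log2 change of the gene per unit of score within groups, with lines of 1 SE. Colours give the class of gene and symbols which slopes passed the test. Ctsd, Ctsh and Ctsz lie farthest to the right, the pump subunits Atp6v0c and Atp6v0b lie highest, and Atp6v1a lies lowest and farthest to the left.

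With the oligodendrocyte score, which was highest in hAPOE3 male 5 (1.09) and hAPOE4 male 3 (0.70), 8 members rose and 3 fell, beside 9.64% and 9.18% of all genes (18.8% together). Tfeb had the steepest slope, 0.79 ± 0.14 (SE, edgeR adjusted p 0.000724), and its highest levels, 13 and 13.1 CPM, were in those 2 mice, against 5.65 to 9.26 CPM in the other 18. Ctsa, Ctsd, Ctsf, Ctsh, Ctsz, Gusb and Lamp1 also rose, while Atp6v0a1, Atp6v1a and Atp6v1c1 fell. Lamp1 was at 337 and 342 CPM in the same 2 mice and at 217 to 288 CPM in the others. Counts of members in fits with mice left out are given here without the share of all genes called. Without hAPOE3 male 5, 5 members passed, and without the 4 hAPOE4 males with raised oocyte markers 4 did (Tfeb, Ctsz, Lamp1 and Atp6v1a). With the microglia score, whose range over the 20 mice was narrow (-0.11 to 0.23), 0% of all genes passed in edgeR, members included, and at an unadjusted p below 0.05 there were 7 members, beside 8.28% of all genes.

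**Figure D5:**
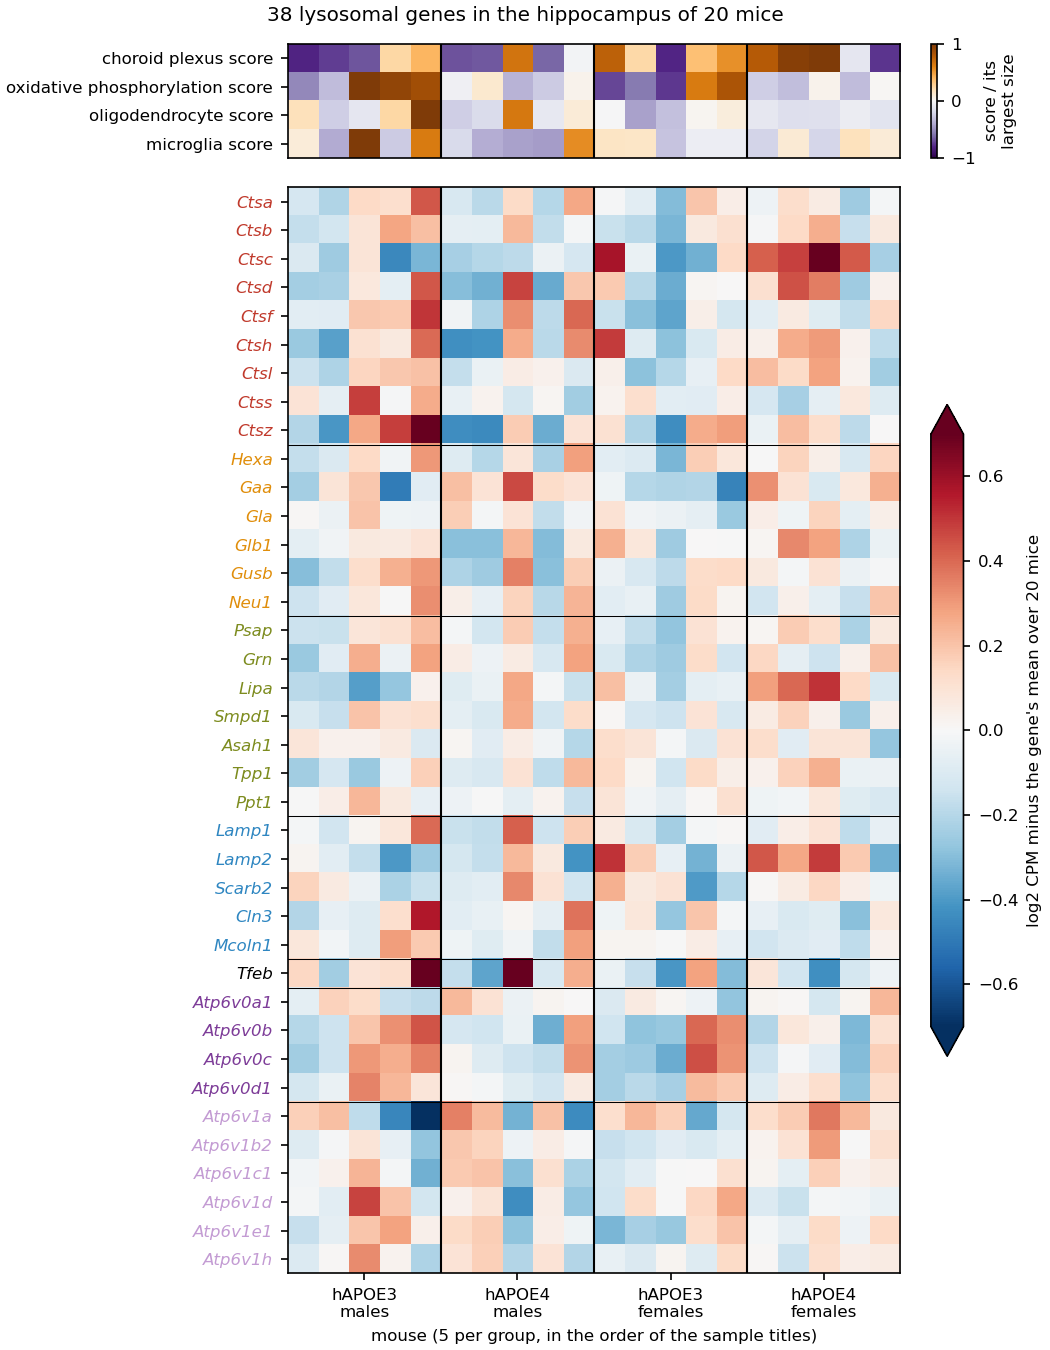
Log2 CPM of each of the 38 genes minus its mean over the 20 mice (lower panel, red higher and blue lower), with mice in columns by group and genes in rows by class, below the 4 scores, each divided by its largest size (upper panel). Levels vary from column to column within each group. Most cathepsins are high in hAPOE3 male 5 and hAPOE4 male 3, among other mice, but Ctsc is below its mean in both. Atp6v1a is low in the hAPOE3 mice in which Atp6v0c is high.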

How the data were processed

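PolyA RNA of each mouse's hippocampus was sequenced, and per the labels the authors quantified reads with Salmon 0.91 against Ensembl mouse cDNA. The authors deposited estimated counts per gene, held as whole numbers, and a signal table of the same counts after DESeq2 normalization, which was used here only for gene length offsets. Whether counting used the strand is not given in the sources used here. The test was that of edgeR 4.0.16, run under R 4.3.3 (filterByExpr, TMM factors, 1 mean per group over all 20 mice, quasi-likelihood F test, Benjamini-Hochberg adjustment), with DESeq2 1.42.0 as an alternative. Members past the threshold and the 3 with the smallest p in each comparison were named, and per class those highest, lowest or most variable in level. Marker score slopes, the ranges of the choroid plexus score, the choroid plexus and oxidative phosphorylation scores together, and the fits without mice with raised oocyte markers were added after the data were seen. Replicate numbers follow sample order and only name mice. CPM include TMM factors. Exon lengths came from GENCODE (GRCm38). The procedure was checked on simulated counts. Other alternatives were DESeq2 size factors, no filter, gene length offsets, only the groups compared, marker scores as covariates and leaving out each mouse. The members and lists were chosen with earlier results of these data known.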

Additional observations from a re-analysis of the deposited data

Results flagged for a closer look

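In 3 of the 152 combinations of gene and group, 1 mouse stood far from the other 4 of its group (gap to the nearest mouse against the range of the group, Dixon's test), where chance gives about 1 in 20. Gla, which encodes the lysosomal alpha-galactosidase, was at 12.3 CPM in hAPOE3 male 3 against at most 10.7 CPM in the other hAPOE3 males. Cln3, a lysosomal membrane protein, was at 19.1 CPM in hAPOE4 male 5 against at most 14.8 CPM in the others of that group. Mcoln1, the lysosomal calcium channel, was at 77.9 CPM in the same mouse against at most 62.8 CPM.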

How the results depend on the processing

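No paired analysis was possible because the labels give no replicate numbers shared between groups. Counts of members called in the alternative fits below are given without the share of all genes called in the same fit, so they are not set against it. Among the 7 comparisons of groups, calls changed only for the mean genotype difference of both sexes: the count of members was 2 with DESeq2 (Gaa and Atp6v1b2) and with the choroid plexus score as covariate (Gaa and Lipa), and 0 with DESeq2 size factors, without the filter, with gene length offsets, with the microglia score, with the oxidative phosphorylation score, with that and the choroid plexus score together, in the 16 mice without raised oocyte markers, and in the 8 mice with a choroid plexus score under -1.5. In each of these fits Gaa was higher in hAPOE4 mice, by 0.28 to 0.34 on the log2 scale, with adjusted p values from 0.0145 to 0.756. With each mouse left out the count was 0 to 1. The cause of the changes was not tested, except that the 8 and the 16 mice are fewer.

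In those 8 mice, a choice made after seeing the data with 1 female in each genotype, the medians over the 38 genes were 0.19 (hAPOE4 against hAPOE3 females), -0.18 (females against males, hAPOE3), 0.13 (females against males, hAPOE4) and 0.30 (interaction). There the sex difference among hAPOE4 mice turned to -0.069 for Ctsc, -0.049 for Lipa and -0.26 for Lamp2, that for the mean of both genotypes to -0.20, -0.015 and -0.12, and the interaction for Ctsl to -0.033. The other medians moved by less than the SD between mice of a group (0.10).

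The choroid plexus slopes gave 7 members with gene length offsets (6 of the 11, and Atp6v0a1 lower), 4 with all 4 scores together, 3 in the 16 mice without raised oocyte markers, 0 within either range of the score, and 7 to 19 with each mouse left out. For the oxidative phosphorylation score leaving out each mouse gave 7 (hAPOE3 female 4, hAPOE3 male 1 or hAPOE3 male 2) to 15, and for the oligodendrocyte score 5 to 13, with 5 when all 4 scores were in the model and 4 in the 16 mice.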
